A study of Mus musculus with 22 samples.

Results

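The genes described are 6 ATP-binding cassette (ABC) efflux pumps of the mouse kidney, Abcb1a, Abcb1b, Abcc2, Abcc3, Abcc4 and Abcg2, listed by name as the pumps known to carry drugs and conjugates. They are 6 of 13967 genes tested, and each has 1 probe set with a single gene symbol, which passed the filter on dim probe sets. Abcb1a is read by probe set 10519527 and Abcb1b by probe set 10519555. Expression was measured on 22 Affymetrix whole-transcript arrays, 11 of wild-type (WT) kidneys and 11 of kidneys from clock(-/-) mice (KO), which lack the circadian transcription factor Clock. Kidneys were collected at 6 circadian times, ZT0, ZT4, ZT8, ZT12, ZT16 and ZT20, where lights went on at ZT0 and off at ZT12 of the preceding cycle. The KO colony was founded with heterozygous pairs, and no label says whether the WT mice were littermates. All mice spent 2 weeks in cycles of 12 h light and 12 h dark, then 30 h in constant darkness. Clock is missing from the whole body of KO mice and not from the kidney alone. Strain, age and sex are not among the labels used here. Each array holds RNA pooled from 2 or 3 mice, and each time has 2 pools per genotype, except 1 WT pool at ZT8 and 1 KO pool at ZT16. No label says that pools came from separate litters or days, so p-values measure only the spread between these pools.

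ABC efflux pumps use ATP to move drugs, toxins, bile pigments and conjugated metabolites out of cells. Abcb1a and Abcb1b are the paralogous mouse genes for P-glycoprotein, which in humans is made from a single gene, ABCB1. In the proximal tubule, P-glycoprotein, Abcc2, Abcc4 and Abcg2 sit in the brush border and deliver substrates to the urine, after organic anion and cation carriers have taken them up from the blood, while Abcc3 is a basolateral pump that returns conjugates to the blood. The clock reaches such genes through E-box motifs bound by Clock and Arntl and through D-box motifs bound by Dbp, Tef, Hlf and Nfil3.

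The 22 arrays correlated at 0.980 to 0.994 over all 35556 probe sets, and none was a copy of another. Y-linked genes were detected on every array (Eif2s3y at 8.22 to 9.38 log2, Uty at 7.85 to 8.71) and Xist lay at 3.18 to 3.84, so the pools were alike in that respect. Clock read 8.83 log2 in WT and 8.96 in KO as fitted means, a difference of 0.13 ± 0.04 (limma adjusted p = 0.0398, and 0.0683 once both KO pools at ZT20 were left out), and since its probe set can read sequence outside a deletion, this does not check the genotype. Some arrays stood apart from their group. Pool 2 of WT at ZT4 read Lcn2, a tubular injury marker, at 8.36 log2 against 6.07 to 6.73 on the other 10 WT arrays and 6.09 to 6.77 on the KO arrays. Both KO pools at ZT20 were low in the organic anion carrier Slco1a1, with 6.30 and 5.18, where the remaining KO arrays had 8.15 to 10.5. For many of the results that moved when these arrays were left out, the value without them is given below. This was a choice made after the values were seen, and not every moved value is given.

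Of the 6 pumps, 3 were higher in KO and 0 lower, counted at a Benjamini-Hochberg adjusted p under 0.05 in limma, and 0 were lower at an unadjusted p under 0.05. Over all genes tested, 9.14% were called in either direction, with 5.23% higher and 3.9% lower. Abcb1b rose most, followed by Abcc3 and Abcc4. Abcb1a, Abcc2 and Abcg2 did not pass the test. The differences of the 6 pumps had a median of 0.24 log2, against 0.00402 over all genes tested. Since the pumps were chosen with earlier results of these data known, this count and median describe them and do not test them as a set. Each difference is KO minus WT of the fitted means over the cycle, from a model with a 24 h wave for each genotype, and errors after ± are standard errors of that fit unless SD is written. In whole kidney, more cells of a type and more RNA per cell cannot be told apart.

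Abcb1b, the inducible rodent form of P-glycoprotein, was measured in log2 on the WT pools of ZT0 (6.15, 6.43), ZT4 (6.15, 7.27), ZT8 (6.56), ZT12 (6.31, 6.16), ZT16 (6.31, 6.08) and ZT20 (5.99, 6.31). The KO pools were those of ZT0 (7.31, 7.54), ZT4 (7.70, 7.69), ZT8 (7.57, 7.72), ZT12 (7.21, 7.33), ZT16 (7.25) and ZT20 (7.31, 7.0). A single WT array, pool 2 at ZT4, reached the KO range, and the other 10 WT arrays lay between 5.99 and 6.56, below all 11 KO arrays. The 11 WT arrays averaged 6.34 ± 0.35 (SD, n = 11). For the 11 KO arrays the average was 7.42 ± 0.24 (SD, n = 11). The rise over the cycle was 1.04 ± 0.09 log2 (limma adjusted p = 9.08e-07), which is 2.05-fold with a 95% interval of 1.79 to 2.35, and ranked 7 among all 13967 genes. Without the WT pool at ZT4 that reached the KO range, the rise was 1.13 log2 (adjusted p = 1.15e-09).

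The difference of Abcb1b ranged from 0.98 to 1.14 log2 over the 6 times, less than the standard error of a single time. It took the values 1.14 (ZT0), 0.98 (ZT4), 1.08 (ZT8), 1.04 (ZT12), 1.05 (ZT16) and 1.01 (ZT20), with a standard error of 0.25, or 0.30 at ZT8 and ZT16. With 1 or 2 pools per group, 0 of these 6 differences passed limma's adjusted threshold (adjusted p from 0.0537 to 0.809), and all 6 had an unadjusted p under 0.05. Few genes passed at single times, 0.0286% of all genes at ZT0, 0.00716% at ZT4, 0.0286% at ZT8, 0.122% at ZT12, 0.0143% at ZT16 and 1.75% at ZT20. The pools numbered 1 gave a rise of 1.15 log2 (limma adjusted p = 1.85e-05) and those numbered 2 gave 0.86 (adjusted p = 0.0841), the latter over 10 arrays that include the raised WT pool at ZT4.

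**Figure D1:**
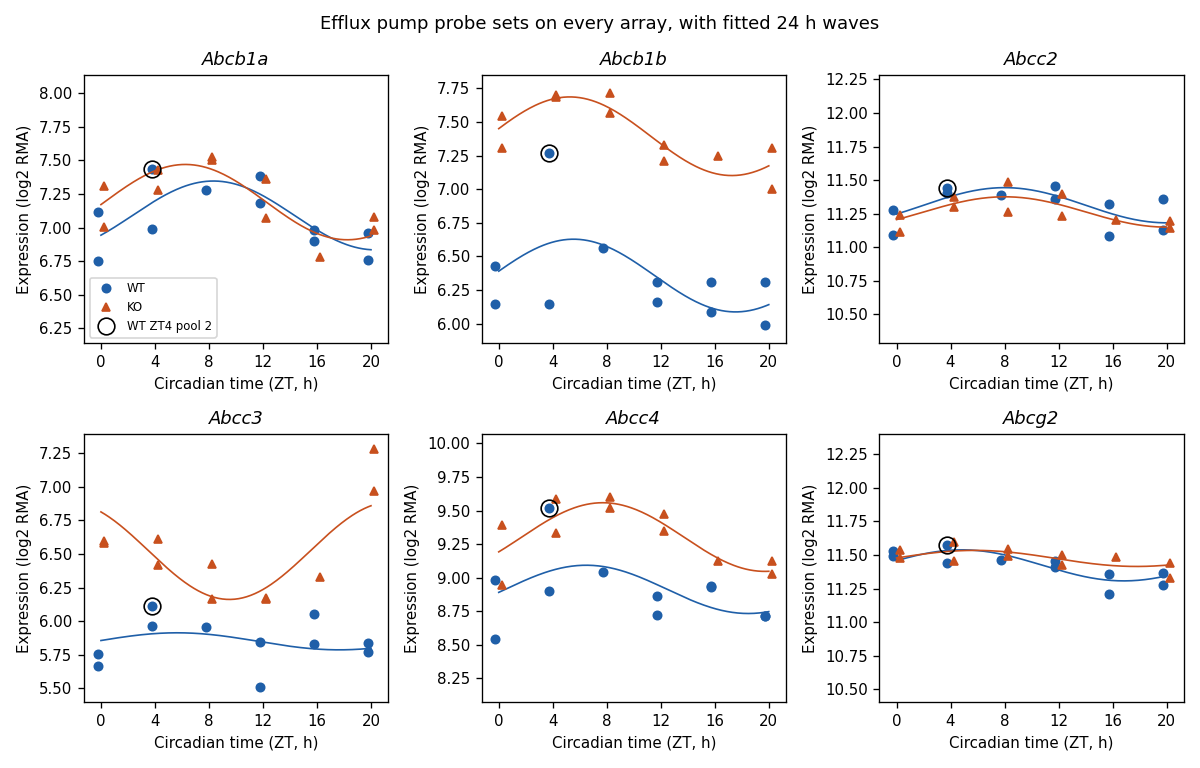
Expression (log2 RMA) of the 6 pumps on each array against circadian time in h. Blue circles are WT and orange triangles KO arrays, lines are the fitted 24 h waves, each panel spans the same range in log2 units, and the ringed point is pool 2 of WT at ZT4. For Abcb1b that point lies at 7.27, within the KO range of 7.0 to 7.72, and the other WT points end at 6.56.

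Abcc3, the basolateral multidrug resistance protein 3, was measured in log2 on the WT pools of ZT0 (5.67, 5.75), ZT4 (5.96, 6.11), ZT8 (5.96), ZT12 (5.84, 5.51), ZT16 (6.05, 5.83) and ZT20 (5.84, 5.77). The KO pools were those of ZT0 (6.59, 6.58), ZT4 (6.61, 6.42), ZT8 (6.43, 6.17), ZT12 (6.17, 6.17), ZT16 (6.33) and ZT20 (7.28, 6.97). All 11 KO arrays lay above the highest WT array, and the pools of ZT20 were the highest of them. Abcc3 rose by 0.67 ± 0.08 log2 (limma adjusted p = 2.17e-05), or 1.60-fold with a 95% interval of 1.42 to 1.80. Without the KO pools at ZT20 the rise was 0.55 log2 (adjusted p = 0.000104), and within pools numbered 2 it was 0.69 and lost the call (adjusted p = 0.122).

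The difference of Abcc3 ranged from 0.34 to 1.32 log2 over the 6 times. It was 0.88 ± 0.13 log2 at ZT0 (limma adjusted p = 0.0394, where 0.0286% of all genes were called) and 1.32 ± 0.13 at ZT20 (adjusted p = 0.000206, where 1.75% were called), and those were the 2 calls among the 36 combinations of pump and time. At ZT4, ZT8, ZT12 and ZT16 it was 0.48 ± 0.13, 0.34 ± 0.16, 0.49 ± 0.13 and 0.39 ± 0.16. The test of a difference between both rhythms, the vector between the fitted waves, gave 0.40 ± 0.12 log2 for Abcc3 and did not pass (adjusted p = 0.497, unadjusted p = 0.0094). Without the KO pools at ZT20 this vector was 0.21 ± 0.09 log2 (limma adjusted p = 0.998, unadjusted p = 0.0913). The pools at ZT20 with the highest Abcc3 were also those with the lowest Slco1a1, as given above, and with Cyp7b1, a steroid hydroxylase, at 8.53 and 7.26 where the remaining KO arrays had 8.63 to 10.99. The part of what sets these pools apart in the value of Abcc3 at ZT20 was not tested.

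Abcc4, a brush border pump for urate, cyclic nucleotides and organic anions, was measured at 8.54 to 9.52 log2 on WT arrays (median 8.90) and at 8.94 to 9.60 on KO arrays (median 9.35). The groups overlapped, and as for Abcb1b the highest WT array was pool 2 at ZT4, with 9.52 against at most 9.04 on the other WT arrays. Above that 9.04 lay 9 of the 11 KO arrays. Abcc4 rose by 0.39 ± 0.08 log2 (limma adjusted p = 0.00275), or 1.31-fold with a 95% interval of 1.17 to 1.47. The rise was 0.46 log2 without that WT array and 0.31 within pools numbered 2, where the call was lost (adjusted p = 0.435). At single times the differences ran from 0.19 ± 0.23 at ZT16 to 0.62 ± 0.19 at ZT12.

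The other apical pumps gave small differences whose intervals leave out a change the size of that of Abcb1b. Abcb1a was measured at 6.75 to 7.44 log2 in WT (median 6.99) and 6.78 to 7.52 in KO (median 7.28), so the groups overlapped over nearly their whole range. Its difference was 0.10 ± 0.06 log2, with a 95% interval of -0.03 to 0.23 (limma adjusted p = 0.34). The difference of Abcb1a was 0.06 without the KO pools at ZT20 (adjusted p = 0.739) and 0.13 without pool 2 of WT at ZT4 (adjusted p = 0.151). Abcc2, the canalicular and brush border pump for glucuronide and glutathione conjugates, was measured at 11.1 to 11.5 in both genotypes, and its difference was -0.05 ± 0.04 log2 with an interval of -0.14 to 0.04 (adjusted p = 0.49). Abcg2, the urate and sulfate conjugate pump also known as breast cancer resistance protein, was measured at 11.2 to 11.6 in WT and 11.3 to 11.6 in KO, and its difference was 0.05 ± 0.03 log2 with an interval of -0.02 to 0.12 (adjusted p = 0.351).

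**Figure D2:**
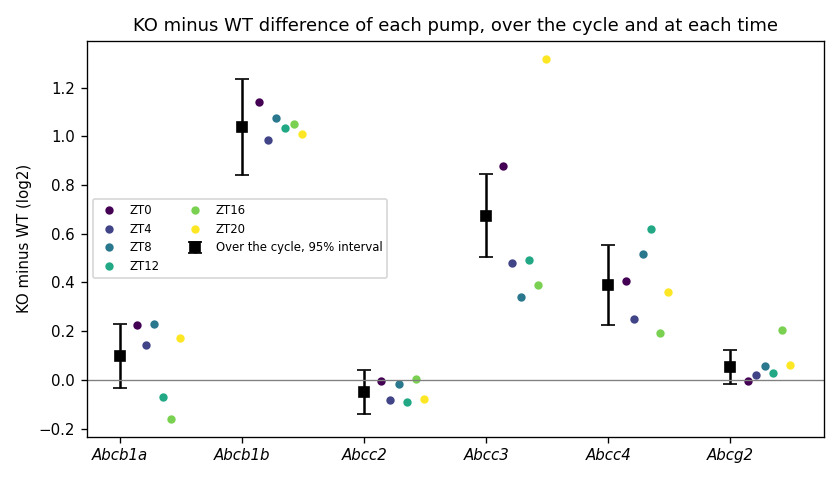
KO minus WT difference in log2 for each pump. Squares are the differences over the cycle with 95% intervals, and coloured points are the differences of group means at each circadian time. The points of Abcb1b lie between 0.98 and 1.14, those of Abcc3 between 0.34 and 1.32, and the intervals of Abcb1a, Abcc2 and Abcg2 include 0.

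The Abcb1 paralogs were then compared directly, with the rise of Abcb1b already known. Within an array, Abcb1b minus Abcb1a ranged from -1.08 to -0.17 log2 in WT and from -0.03 to 0.47 in KO, so the genotypes did not overlap in this value. Pool 2 of WT at ZT4 held the highest WT value, and the other 10 WT arrays reached at most -0.58. Only the change of this value between genotypes is meaningful, since probe sets of different genes are not on a shared scale of abundance. Averaged over the 6 times, the change was 0.96 log2 higher in KO for Abcb1b than for Abcb1a. An exact two-sided permutation of the genotype labels within each time, 11664 labelings in all, gave p = 8.57e-05, the smallest these labelings can give. Because the contrast was chosen on these same arrays, this p describes how far the genotypes separate and is not independent support. A wave model of Abcb1b minus Abcb1a put the change at 0.94 ± 0.08 log2 with a 95% interval of 0.76 to 1.12. Within pools numbered 2 the change was 0.75 log2, where 16 labelings cannot go below the p of 0.125 found in this exact test. Probes of such close paralogs may read both transcripts, which would draw their differences together, and this was not tested.

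**Figure D3:**
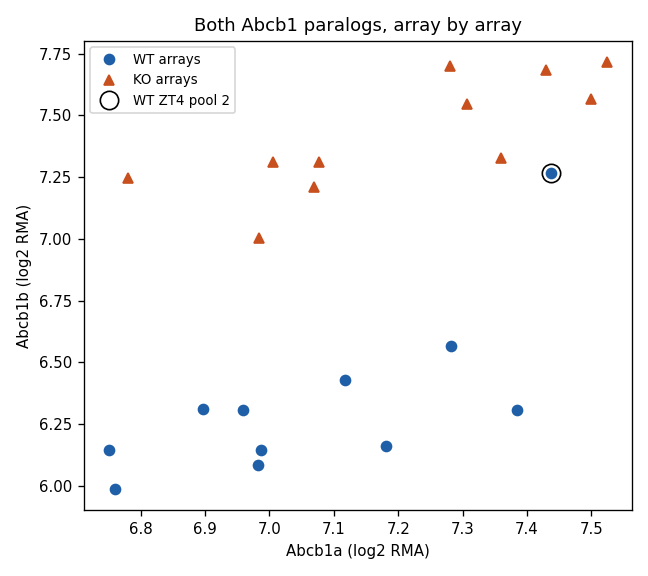
Abcb1b against Abcb1a on each array, both in log2 RMA. Blue circles are WT arrays, orange triangles KO arrays, and the ring marks pool 2 of WT at ZT4. On the Abcb1a axis WT arrays span 6.75 to 7.44 and KO arrays 6.78 to 7.52, and KO arrays lie at 7.0 or above on the Abcb1b axis.

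Abcb1a and Abcb1b lie side by side on chromosome 5, which also carries Clock, so sequence inherited with the targeted locus cannot be told apart from the deletion unless recombination has separated them. Nearby genes give the local background. Of the 5 measured genes on each side of the pair, 1 of 10 was higher in KO, 1 was lower and 8 were not called, with a median of 0.03 log2, beside 5.23% of all genes higher and 3.9% lower. Without the KO pools at ZT20, 0 of the 10 were higher and 1 lower (2.68% and 1.9% of all genes), and without pool 2 of WT at ZT4, 2 were higher and 2 lower (8% and 5.25%). Sema3d, a secreted guidance cue, was higher by 0.38 ± 0.09 log2 (limma adjusted p = 0.0108, and 0.0573 once both KO pools at ZT20 were left out), and Adam22, a membrane protein of the disintegrin family, was lower by -0.17 ± 0.04 (adjusted p = 0.0124). The nearest measured neighbour on the Abcb1b side, the peroxisomal enzyme Crot, differed by -0.12 ± 0.04 and was not called (adjusted p = 0.0687, and 0.0255 without pool 2 of WT at ZT4). Slc25a40, the nearest on the Abcb1a side, differed by 0.02 ± 0.06 (adjusted p = 0.83). Abcb4, the phospholipid flippase gene next to Abcb1b, was too dim to pass the filter and was measured at 4.65 to 5.32 log2 in WT and 4.54 to 5.11 in KO.

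**Figure D4:**
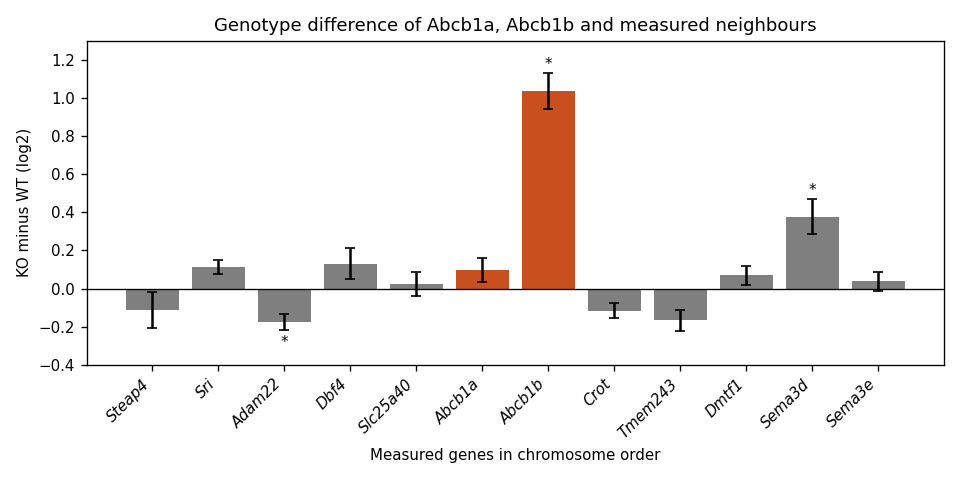
KO minus WT difference over the cycle (log2, bars, with standard errors) of Abcb1a, Abcb1b and the 5 nearest measured genes on each side in chromosome order. Asterisks mark adjusted p under 0.05. The bar of Abcb1b stands at 1.04, and the others lie between -0.17 and 0.38.

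The sequences just upstream of the paralogs are shown because the paralogs differ in their response. They are the 250 bases before the annotated transcript start in RefSeq (GRCm38.p6), 5′ to 3′ on the strand of the gene. Abcc4, which also rose, is shown beside them as the pump whose window holds an E-box. Capitals mark the matches to the motifs searched.
Abcb1b, chr5:8797897-8798146, plus strand: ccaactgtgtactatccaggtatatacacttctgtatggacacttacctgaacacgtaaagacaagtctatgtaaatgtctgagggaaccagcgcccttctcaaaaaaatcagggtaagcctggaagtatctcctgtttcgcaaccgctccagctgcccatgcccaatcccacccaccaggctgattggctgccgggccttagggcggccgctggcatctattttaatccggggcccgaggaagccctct
Abcb1a, chr5:8566841-8567090, plus strand: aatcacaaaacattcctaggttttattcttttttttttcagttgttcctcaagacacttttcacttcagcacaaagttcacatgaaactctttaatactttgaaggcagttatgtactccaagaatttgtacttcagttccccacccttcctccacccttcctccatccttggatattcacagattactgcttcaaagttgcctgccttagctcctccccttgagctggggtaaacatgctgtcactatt
Abcc4, chr14:118706220-118706469, minus strand: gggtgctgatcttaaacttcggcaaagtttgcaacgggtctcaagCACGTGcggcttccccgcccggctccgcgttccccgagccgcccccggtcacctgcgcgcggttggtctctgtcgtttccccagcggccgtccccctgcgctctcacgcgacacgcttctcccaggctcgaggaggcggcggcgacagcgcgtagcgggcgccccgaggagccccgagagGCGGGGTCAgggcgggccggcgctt
The motifs, searched on both strands, were the E-box CACGTG, the related CACGTT, the D-box as TTATGTAA or TTACGTAA, the nuclear receptor hexamer AGGTCA and the antioxidant response core TGACNNNGC. The windows of Abcb1a and Abcb1b held 0 matches. That of Abcc4 held CACGTG 205 bases and an antioxidant response core 25 bases upstream of the start, and the matches did not overlap. Of all 32851 promoter windows of this length, 6.02% held CACGTG, 3.85% CACGTT, 0.819% TTATGTAA, 0.113% TTACGTAA, 14% AGGTCA and 10.2% TGACNNNGC. In all, 8 windows of 5 pumps were in the table. Abcc3, which also rose, had no window there and was not searched. Abcc2 held AGGTCA and TGACATAGC, a window of Abcc4 at another start held TGACTCTGC, and of 3 Abcg2 windows the most upstream held AGGTCA at 212 and 121 bases, on opposite strands, and the most downstream at 197 bases. GC content was 52.8% for Abcb1b, 40.4% for Abcb1a and 72% for this Abcc4 window, against a median of 52.4% over all windows. A match is a string of letters and not a measured site, and nothing about binding was measured.

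Rhythm was tested next. In WT, 0 of 6 pumps passed limma's test of a 24 h wave, 4 had an unadjusted p under 0.05, and 6.48% of all genes were called. Abcb1a came nearest, with an amplitude, the distance from fitted mean to peak, of 0.26 ± 0.07 log2 (adjusted p = 0.0534). In KO, Abcb1a (0.28 ± 0.06, adjusted p = 0.0482) and Abcc3 (0.36 ± 0.08, adjusted p = 0.0367) were called, where 2.46% of all genes were. Both KO calls were lost without the KO pools at ZT20. Abcb1a then had an amplitude of 0.36 (limma adjusted p = 0.219) and Abcc3 of 0.21 (adjusted p = 0.398). In that fit 12 of all 13967 genes were called in KO, against 343 with all arrays. The loss of calls was thus not particular to these pumps. Among the 22 fits that leave out a single array, Abcb1a in KO was called in 6, those without pool 1 of WT at ZT0 or ZT12, either WT pool at ZT4, pool 2 of KO at ZT0 or pool 1 of KO at ZT4. Abcc3 was called in 16 and lost without pool 2 of KO at ZT4 or ZT8 or either KO pool at ZT12 or ZT20. Without pool 2 of WT at ZT4, Abcb1b (adjusted p = 0.0333) and Abcc4 (adjusted p = 0.0465) were called in KO as well. The share of all genes called in that fit is not given here.

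The rhythms of the 6 pumps did not differ between genotypes by the test, with 0 called in limma, 1 at an unadjusted p under 0.05 (Abcc3) and 0.043% of all genes called. That does not show equal rhythms. Abcc3 no longer had an unadjusted p under 0.05 without the KO pools at ZT20 (limma unadjusted p = 0.0913). For Abcb1b the waves of both genotypes lay 0.03 ± 0.13 log2 apart, or 0.20 ± 0.09 without pool 2 of WT at ZT4 (adjusted p = 0.881). They lay 0.15 ± 0.09 apart for Abcb1a, 0.02 ± 0.06 for Abcc2, 0.10 ± 0.11 for Abcc4 and 0.06 ± 0.05 for Abcg2, the value of Abcc4 being 0.17 ± 0.09 without that WT array. Abcb1b had an amplitude of 0.27 ± 0.10 log2 with a peak at ZT5.54 in WT and of 0.29 ± 0.10 with a peak at ZT5.26 in KO. Its WT amplitude rested on pool 2 at ZT4, and was 0.11 ± 0.07 without it (limma adjusted p = 0.626). Its level in KO at the fitted trough thus stayed above the fitted WT peak, as the plot of expression by time shows.

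For 5 of the 6 pumps, the fitted peaks of both genotypes fell between ZT4 and ZT9, in the subjective day. Without pool 2 of WT at ZT4 this held for 3 of the 6. The WT peaks of Abcb1a and Abcc4 then moved to ZT9.21 and ZT9.04. Without the KO pools at ZT20 it held for 4, since the KO peak of Abcg2 moved to ZT3.77. The share of all genes with both peaks in this window was not computed, so the count only describes the pumps. Most of these peaks belong to waves that did not pass the test, with 0 of 6 called in WT and 2 in KO. A test of the mean of both waves, chosen after the values were seen, called 4 of the 6, and 11.5% of all genes. The shared amplitude was 0.26 ± 0.05 log2 for Abcb1a with a peak at ZT7.24 ± 0.65 h (limma adjusted p = 0.00246), 0.28 ± 0.07 for Abcb1b at ZT5.39 ± 0.89 h (adjusted p = 0.0257), 0.12 ± 0.03 for Abcc2 at ZT8.01 ± 0.96 h (adjusted p = 0.0345) and 0.21 ± 0.06 for Abcc4 at ZT7.20 ± 0.96 h (adjusted p = 0.0388). Abcg2 (0.09 ± 0.02, peak at ZT5.16, adjusted p = 0.057) and Abcc3 (adjusted p = 0.141) did not pass, and the Abcc3 wave of KO peaked at ZT21.5 ± 0.91 h. That Abcc3 peak moved to ZT0.01 ± 1.54 h without the KO pools at ZT20. Of the 22 fits that leave out a single array, 22 called Abcb1a, 20 Abcb1b, 12 Abcc2, 12 Abcc4, 2 Abcg2 and 0 Abcc3, and Abcb1b lost its call (adjusted p up to 0.0603) without pool 1 of WT or pool 2 of KO at ZT20. Without the KO pools at ZT20, Abcb1a was called (adjusted p = 0.0064) and Abcb1b (0.0922), Abcc2 (0.105) and Abcc4 (0.119), each an adjusted p, were not. Abcc2 also lost its call without pool 2 of WT at ZT4 (adjusted p = 0.0539).

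The genes most like Abcb1b by Pearson's r over the 22 arrays were Hao2, a peroxisomal hydroxyacid oxidase (0.942), the glutamine transporter Slc38a3 (0.932), the epoxygenase Cyp2c23 (0.931), the glypican Gpc3 (0.917), the matrix protein Efemp1 (0.910) and the amino acid transporter Slc7a12 (0.904). These values carry the genotype difference, since each of these genes was higher in KO, by 0.45 ± 0.05 (Efemp1) to 2.38 ± 0.30 log2 (Slc7a12), and the arrays share normalization. Within the 11 KO arrays r was 0.770 for Cyp2c23, 0.760 for Slc38a3, 0.548 for Efemp1 and 0.544 for Hao2, but 0.031 for Slc7a12 and -0.064 for Gpc3. Within the 11 WT arrays it was 0.624 to 0.810, but -0.095 (Efemp1) to 0.656 (Cyp2c23) without pool 2 at ZT4. Within the 9 KO arrays without ZT20 it was -0.034 (Gpc3) to 0.744 (Slc38a3). On pool 2 of WT at ZT4, Slc7a12 read 10.5 log2 against 6.93 to 9.08 on the other WT arrays, and Hao2 read 11.4 against 10.04 to 10.85, both within their KO ranges. Cyp2c23, at 9.43 there, lay within the range of the other WT arrays, up to 9.52.

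Each other pump had likest genes of its own. Abcc3 was most like the carbonyl reductase Cbr1 (r of 0.925 over the 22 arrays) and the arginase Arg2 (0.898). Abcc4 was most like the proton pump subunit Atp4a (0.897) and ceruloplasmin, Cp (0.893). Abcb1a was most like Inpp5k, a phosphoinositide phosphatase (0.898), and Tlcd1 (0.897), Abcc2 like Impact (0.921) and Tuft1 (0.914), and Abcg2 like the chemokine Cxcl16 (0.922) and the kinase Cdk19 (0.876). The likest genes of Abcc3 and Abcc4 were higher in KO, and those of Abcb1a, Abcc2 and Abcg2 were not called.

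Genes that work with the pumps were read from the same fit, in which 5.23% of all genes were higher and 3.9% lower. Of 22 other transporters of the ABC B, C and G families, 15 were bright enough to be tested and 1 was higher, a share near that of all genes. It was the chloride channel Cftr (0.33 ± 0.07 log2, limma adjusted p = 0.0048), 0 were lower, and at an unadjusted p under 0.05, 3 were higher and 2 lower, with a median of -0.02. Without pool 2 of WT at ZT4, 2 were higher (8% of all genes), Cftr and Abcc1. Abcc1 then differed by 0.15 ± 0.05 log2 (limma adjusted p = 0.048), against 0.12 ± 0.05 with all arrays (adjusted p = 0.156). Of 13 tested carriers that bring organic ions into tubule cells or pass them on, 6 were lower and 0 higher, with 9 lower and 2 higher at an unadjusted p under 0.05. The 4 with the largest falls were Slco1a1 (-1.63 ± 0.35), Slco1a6 (-0.47 ± 0.06), Slc22a6, the organic anion transporter 1 (-0.28 ± 0.06), and Slc22a4 (-0.20 ± 0.06). Without the KO pools at ZT20, 3 carriers were lower (1.9% of all genes), the fall of Slco1a1 was -1.01 ± 0.26, that of Slc22a6 -0.18 ± 0.05, and Slc22a4 lost its call (adjusted p = 0.181). Without pool 2 of WT at ZT4, 7 carriers were lower and 2 higher, beside 5.25% and 8% of all genes.

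Among 16 transcription factors known to act on efflux pump genes, 2 were higher and 2 lower, with a median of -0.03 log2, beside 5.23% and 3.9% of all genes. The xenobiotic receptor Nr1i2, also called PXR, was higher by 0.22 ± 0.05 (limma adjusted p = 0.0081, and 0.0518 once both KO pools at ZT20 were left out), as was the D-box repressor Nfil3 by 0.55 ± 0.09, and the D-box activators Dbp (-0.86 ± 0.22) and Tef (-0.41 ± 0.08) were lower. Nfe2l2, the antioxidant response factor, differed by 0.09 ± 0.04 and was not called (adjusted p = 0.183). Of its 12 tested targets, 1 was higher, Nqo1 (0.27 ± 0.06), and 3 were lower, Hmox1 (-0.32 ± 0.08), Me1 (-0.16 ± 0.04) and Gclm (-0.11 ± 0.03). The calls of these 3 were lost without the KO pools at ZT20 (adjusted p of 0.0652, 0.176 and 0.181), and that of Gclm also without pool 2 of WT at ZT4 (adjusted p = 0.0661). Of 12 listed targets of Nr1i2 and its relative Nr1i3, 3 could be tested, and 1 was lower, Alas1, the first enzyme of heme synthesis (-0.28 ± 0.06).

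Markers of kidney cell types were read on the same arrays, where 5.23% of all genes were higher and 3.9% lower. Of 8 proximal tubule markers, 2 were higher, the cotransporters Slc5a2 (0.20 ± 0.04 log2) and Slc5a12 (0.24 ± 0.04), and 1, Slc7a13, was lower (-0.18 ± 0.05), and the mean level of the list was 12.1 to 12.2 on arrays of both genotypes. Of 8 endothelial markers, 3 were higher, Plvap (0.33 ± 0.04), Pecam1 (0.30 ± 0.06) and Cdh5 (0.27 ± 0.06), 0 were lower in limma or at an unadjusted p under 0.05, and the mean level was 9.0 to 9.23 in WT and 9.09 to 9.35 in KO. Tubular injury markers had 1 of 4 higher (Clu, 0.28 ± 0.05) and 1 lower (Havcr1, -0.29 ± 0.07), with a mean level of 8.13 on pool 2 of WT at ZT4 against 7.28 to 7.68 on the other WT arrays and 7.30 to 7.62 on KO arrays. Immune cell markers had 1 of 7 lower (Csf1r, -0.12 ± 0.04) and 0 higher, with mean levels of 6.70 to 7.08 in WT, the highest on that same array, and 6.65 to 6.96 in KO. Distal nephron markers had 1 of 5 higher (Slc4a1) and 1 lower (Umod), and of 5 markers of adrenal and fat tissue, 2 were bright enough to be tested and 0 were called in limma or at an unadjusted p under 0.05. Without pool 2 of WT at ZT4, 5 endothelial and 3 distal markers were higher (8% of all genes), and Umod lost its call (adjusted p = 0.0597). With both KO pools of ZT20 left out, Slc7a13 (adjusted p = 0.125), Csf1r (0.0866) and Umod (0.0772), each an adjusted p, lost theirs. The part of these shifts in the rises of Abcb1b, Abcc3 and Abcc4 was not tested.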

How the data were processed

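The authors deposited log2 values for each probe set, and per the submitters' processing notes these come from RMA, a method that corrects background, quantile-normalizes arrays and summarises probes. Neither its version nor the genome build is given in the sources used here. RMA removes a shift shared by most genes and compresses dim probe sets. Of 35556 probe sets, 21789 had 1 gene symbol in the platform annotation, 1621 had several and 12146 were not listed, and 21698 matched RefSeq by gene number. The dimmest 30 percent of single-symbol probe sets by mean level were dropped, and each of 13967 genes was read from its brightest probe set. limma 3.58.1 in R 4.3.3 fitted a mean, cosine and sine per genotype (16 residual degrees of freedom), and separately the 12 group means (10 residual degrees of freedom, a single pool being assumed to vary like the others), with Benjamini-Hochberg adjustment over all genes and a threshold of 0.05. The paralog comparison used an exact permutation within times. The models were tested on simulated data. The number of arrays limits the precision. Named genes were the members, up to 4 called genes per list with the largest differences, the genes most like each pump, and the 5 measured genes on each side of the Abcb1 pair. Lcn2, Cyp7b1, Xist, the Y-linked genes and Abcb4 were added after values were seen. The pumps and lists were chosen with earlier results of these data known.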

Additional observations from a re-analysis of the deposited data

How the results depend on the processing

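The rises of Abcb1b, Abcc3 and Abcc4 kept their direction and their call under other filters where they were tested, every probe set tested alone, subtracted array medians, repeated quantile normalization, a trended robust spread, array weights, group means, and without both KO ZT20 pools, without the pool 2 arrays of KO ZT8, KO ZT12 and WT ZT4, or without any single array. With the pool number as a replicate block, the rise of Abcb1b was 1.04 log2 (adjusted p = 1.02e-06), and 2 pump and time combinations were called, as without it. No label says what the numbers mark. The pool differences of the 10 groups with 2 pools correlated at -0.41 to 0.55, with 25 of 45 above 0.1. The numbers were not taken to pair the samples, under a rule chosen here that asked for all 45 above 0.1. A shared effect of pool number could exist without meeting that rule. In its deviation from the group mean, each of the 20 arrays correlated best with one of its own number. Both arrays of a group mirror each other in this value, so it amounts to 10 groups. Abcc2 was higher in pool 2 in 10 of 10 groups. Both are a hint from the data, not the design, that the numbers may mark something shared. The block raised the genes called over all from 1276 to 1405 (KO minus WT), from 905 to 1206 (WT rhythm) and from 343 to 416 (KO rhythm). In pool 2 arrays alone, 0 members and 1 gene of all were called, Abcb1b differed by 0.861 log2 and Abcg2 by -0.0017, with its sign reversed, over 10 arrays. Abcb1b minus Abcb1a differed there by 0.751, over the 4 times with pool 2 arrays of both genotypes. Rhythm calls moved most. In WT, 1 pump was called with the 50th percentile filter (which leaves out Abcc3), subtracted medians or array weights, and 2 with the replicate block (Abcb1a and Abcc2) or the trended spread (Abcb1a and Abcg2), against 0. In KO, 3 were called with array weights (Abcc4 added), 1 with the 50th percentile filter, every probe set, subtracted medians, repeated quantile normalization or group means, and 0 with no filter, without both KO ZT20 pools, without the 3 pool 2 arrays, or in either pool number alone, against 2. WT rhythm calls over all genes were 995 to 1206 in the settings with 1 or 2 pumps, against 905. KO rhythm calls over all genes were 697 with array weights and 59 (group means) to 414 (50th percentile filter) in the settings with 1 pump, against 343. They were 228 with no filter, 58 without the 3 pool 2 arrays and 12 without both KO ZT20 pools. In either pool number alone 0 genes of all were called in KO, so the 0 there is not particular to the pumps. Without both KO ZT20 pools, 639 genes were called as differing between genotypes, against 1276 (565 in pool 1 alone, 2351 with array weights). Leaving out single arrays gave 0 to 2 called in WT and 0 to 4 in KO, 3 for KO minus WT, an Abcb1b rise of 0.971 to 1.13 log2, and 0.903 to 1.01 log2 for Abcb1b minus Abcb1a, with p from 0.000129 to 0.000257 in the exact permutation test. The cause of these moves was not tested. Other probe sets of the paralogs were not run, since each has 1 probe set with a single symbol.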
